A study of Sebastes schlegelii with 6 samples.

Results

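Histone demethylases, histone deacetylases and sirtuins are enzymes that take methyl or acetyl groups off lysines, and their genes were followed here in the liver of a marine fish, the Korean rockfish (Sebastes schlegelii). The genes were chosen by symbol: each row of the deposited count table whose symbol begins with kdm, hdac or sirt and a digit, all copies kept. This gave 41 of 19303 genes, of which 20 are demethylases, 13 are HDAC deacetylases and 8 are sirtuins, under 31 different symbols. Livers had been sampled after 72 days of starvation (3 libraries) or 72 days of feeding (3 libraries), and the series title asks how the fish responds to starvation. No genotype, sex, age, ration or clone is given by the labels, and nothing says whether each library is a different fish, so p-values reflect library-to-library spread, which may be technical. RNA came from whole liver, so fewer cells of a type and less RNA per cell cannot be told apart.

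Acetyl groups on histone lysines generally mark open, transcribed chromatin, and deacetylases remove them. HDAC enzymes use zinc and most work within corepressor complexes, whereas sirtuins spend NAD+ for each group they remove, which ties them to the energy state of the cell. Among the demethylases, the KDM1 enzymes use FAD, and the KDM2 to KDM8 enzymes carry a JmjC domain that needs iron, oxygen and alpha-ketoglutarate. In the liver of mice, SIRT1 acts on the fasting regulators PGC-1alpha and FOXO1, and class IIa HDACs enter the nucleus when glucagon signals and help FOXO factors to act. SIRT3 and SIRT5 work in mitochondria, SIRT5 chiefly by removing succinyl and malonyl groups.

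Total counts ranged from 13469708 to 14716282 in starved and from 11623356 to 13029074 in fed libraries. Fed replicate 1 stood apart: 41.7% of its uniquely mapped reads were spliced, against 50.7% to 53.3% in the other 5 libraries, and Pearson r of log2(CPM + 1) over genes between it and the other fed libraries was 0.896 and 0.906, against 0.964 between fed replicates 2 and 3 (genes are not independent replicates). The 41 genes together had 10305 to 11754 counts in starved libraries, 5171 counts in fed replicate 1 and 9422 to 12256 counts in the other fed libraries. After scaling, fed replicate 1 was the lowest of the 6 libraries for 20 of the 39 tested members, against 32.8% of all tested genes; in the deposited FPKM values it was the lowest for 29 of 39, against 48.5%. Fits were also run without this library. Values from them are given beside many of the results below, but not beside every one that it changes. Liver identity was checked on hepatocyte markers: all 24 genes matched had counts in at least 1 library. They summed to 163878 to 200380 CPM in starved and 142392 to 284083 CPM in fed libraries. The highest of them, apoa1, averaged 99245.5 CPM over the 6 libraries. Exocrine pancreas markers summed to 16.6, 20.1 and 338 CPM in starved replicates 1, 2 and 3 and to 8.12, 67.6 and 9.24 CPM in fed replicates 1, 2 and 3. Each of these 15 genes had a count in at least 1 library, but only 7 had enough counts to be tested. Red cell markers summed to 239 to 1104 CPM in starved and 498 to 1357 CPM in fed libraries (6 genes), and leukocyte markers to 181 to 366 CPM in starved and 141 to 232 CPM in fed libraries (8 genes). The 13 markers of dividing cells summed to 22.5 to 23.9 CPM in starved and 59.2 to 191 CPM in fed libraries. By the edgeR call given below, 8 of the 13 fell (61.5%, against 2.98% of all tested genes). Their part in the results below was not tested.

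The levels of the family were first set out per coding length, in the deposited FPKM values. Mitochondrial SIRT5 led. SIRT5 (gene model 10022302; models carry the prefix S.schlegelii_GLEAN_) had 67.4, 51.4 and 44.5 FPKM in starved livers and 30.1, 69.0 and 64.3 FPKM in fed livers. The second gene of that name, sirt5 (10014679), had 35.7, 25.8 and 31.8 FPKM in starved livers and 21.6, 33.4 and 25.3 FPKM in fed livers. Starved and fed values overlapped for both. Both genes have a coding length of 918 bases, and reads may be shared between them if their sequences are close. Together they averaged 83.4 of the 108 FPKM summed over the 8 sirtuin genes.

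Next came Hdac6 (10003034), a largely cytoplasmic deacetylase known for acting on tubulin, with a mean of 28.9 FPKM and a range over the 6 libraries, 13.5 to 42.0 FPKM, that spans that of sirt5. HDAC1 (10022811), a nuclear class I enzyme of the Sin3, NuRD and CoREST complexes, had 14.2 FPKM, and KDM5B (10015698), which removes methyl groups from a histone mark of active promoters, had 13.9 FPKM. kdm8 (10021587), a JmjC protein also known as JMJD5, had 13.2 FPKM and hdac3 (10008449), the enzyme of the NCoR and SMRT complexes, had 10.5 FPKM. HDAC1, KDM5B and kdm8 overlapped in their per-library values and have no clear order among them. KDM5C and the better expressed SIRT3 gene (10012404) had 8.33 and 8.12 FPKM. At the low end, Kdm6b (10020673), hdac9b, HDAC11 (10012533) and SIRT3 (10000160) averaged 0.235 to 0.485 FPKM. Of these, HDAC11 (10012533) had 7, 10 and 9 counts in starved livers and 7, 7 and 1 counts in fed livers, and SIRT3 (10000160) had 6, 5 and 2 counts in starved livers and 16, 8 and 2 counts in fed livers. They were the 2 members below the filter on low counts and were not tested.

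**Figure D1:**
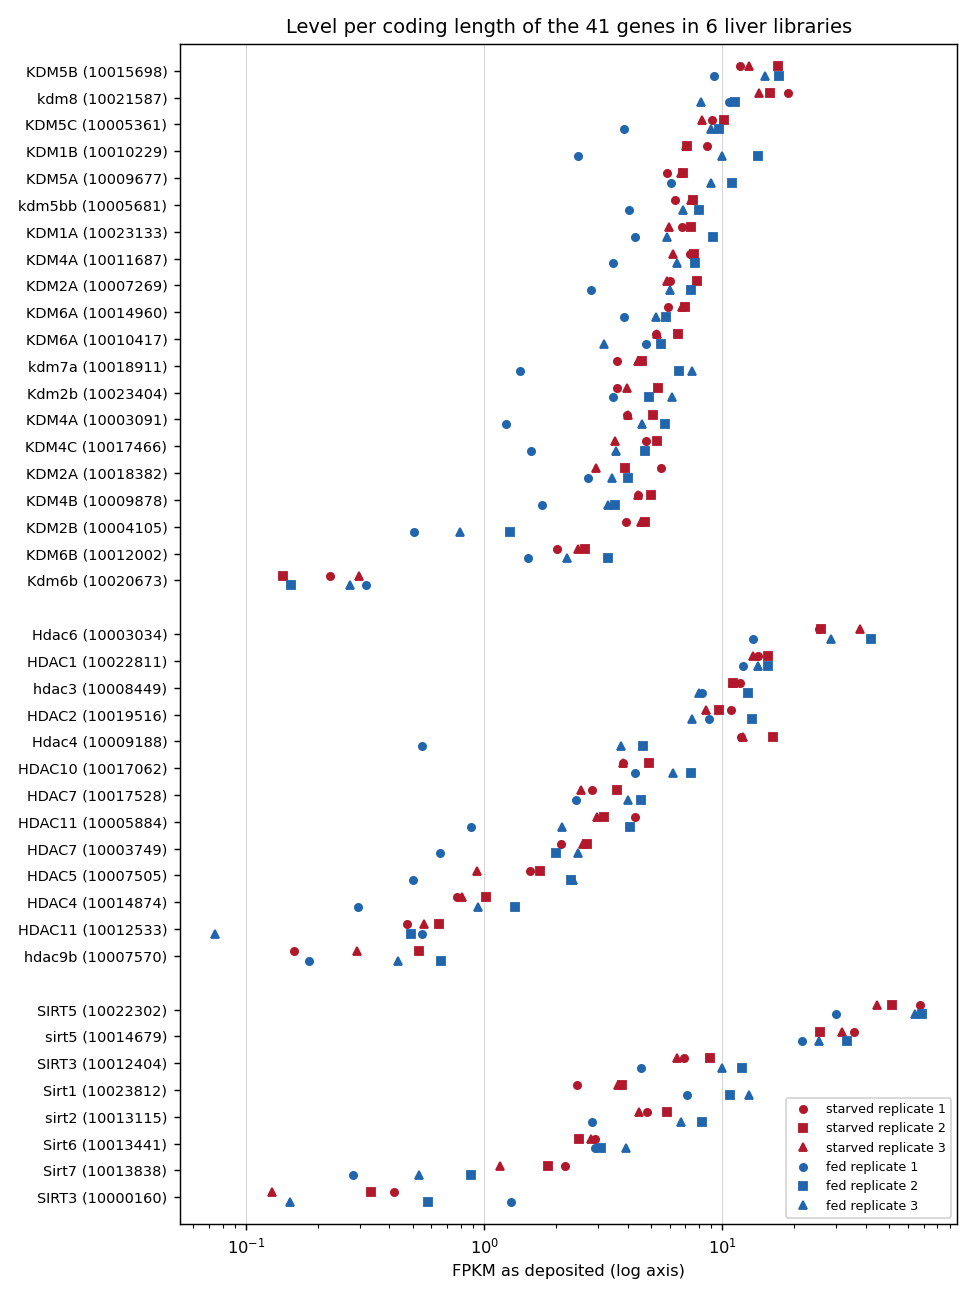
Deposited FPKM (log axis) of the 41 genes, by family and in order of mean level, with 1 point per library and starved libraries drawn above fed ones. SIRT5 (10022302) is the highest, at 30.1 to 69.0 FPKM, and fed replicate 1 (blue circle) lies to the left of the other fed libraries for most genes.

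Starved liver was then set against fed liver to ask which of these transcripts changed. KDM2B (10004105) and Hdac4 (10009188) rose, Sirt1 (10023812) fell, and the other 36 of the 39 tested members did not pass (edgeR quasi-likelihood; the call is an adjusted p under 0.05, Benjamini-Hochberg over 13338 genes). The 3 members are 7.69% of those tested, against 5.16% of all tested genes, so the number called is close to the background and is not in itself a result about these enzymes; 2.18% of all tested genes rose and 2.98% fell. The median log2 fold change was 0.07 over the members and -0.03 over all tested genes, and 35 of the 39 had a log2 fold change under 1 in size. Groups did not overlap in CPM for 8 members that were higher and 3 that were lower in starved liver; 31.1% of all tested genes had groups that did not overlap, 15.6% with starved higher and 15.5% with starved lower. Without fed replicate 1, 3 members rose (KDM2B, Hdac4 and kdm8) and 1 fell (Sirt1), which is 10.3% of the 39, against 12.3% of all tested genes. How small a change these 6 libraries could detect was not tested for these members, so a member that did not pass may still have changed.

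**Figure D2:**
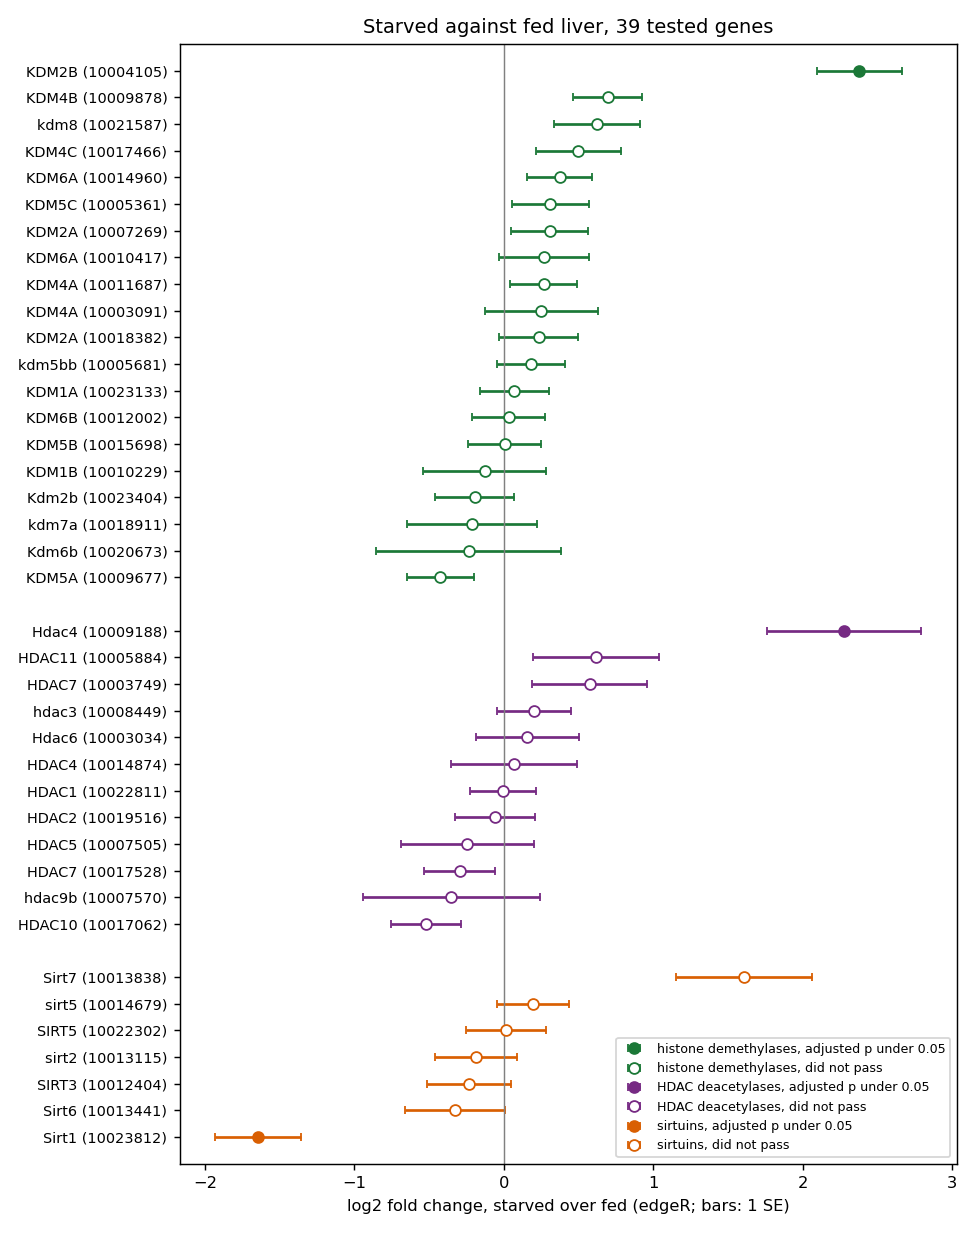
log2 fold change of starved over fed liver with 1 SE for each of the 39 tested genes, by family, with filled points for an edgeR adjusted p under 0.05. KDM2B at 2.38, Hdac4 at 2.28 and Sirt1 at -1.65 are the filled points, and Sirt7 at 1.61 is the other gene beyond 1.

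Among the demethylases, KDM2B (10004105) rose 5.19-fold. KDM2B binds unmethylated CpG islands in mammals, where it brings in a Polycomb complex, and it removes methyl groups from a histone mark of gene bodies. Its level was 14.7, 17.1 and 19.2 CPM in starved livers and 2.67, 4.12 and 2.92 CPM in fed livers. All starved libraries lay above all fed ones, with the lowest starved value well above the highest fed one. The log2 fold change was 2.38 ± 0.28 (SE, n = 3 per group; edgeR adjusted p = 0.00611). The call held in each of the 17 alternatives, with adjusted p from 1.69e-10 to 0.0413, and without fed replicate 1 the log2 fold change was 2.26 (edgeR adjusted p = 0.004). The authors' deposited table gives a fold change of 5.23 and a q-value of 3.79e-10 for this gene.

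The second gene of this name, Kdm2b (10023404), had 8.22, 11.9 and 10.2 CPM in starved livers and 11.1, 9.70 and 13.9 CPM in fed livers. The groups overlapped, and the log2 fold change of -0.20 ± 0.27 did not pass (SE, n = 3 per group; edgeR adjusted p = 0.704). Its coding length is 2376 bases, against 3894 bases for the gene that rose.

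The KDM4 enzymes act on methyl marks of silent chromatin, among other marks. Their log2 fold changes lay between 0.25 and 0.69 in all 4 genes, and none passed. Fed replicate 1 was the lowest library in CPM for each of the 4. KDM4A (10003091), at 0.25, had 12.2, 15.2 and 14.0 CPM in starved livers and 5.33, 15.2 and 14.0 CPM in fed livers. The largest log2 fold change was that of KDM4B (10009878), at 15.2, 16.7 and 17.1 CPM in starved livers and 8.47, 10.5 and 11.2 CPM in fed livers. The groups did not overlap. Its log2 fold change of 0.69 ± 0.23 did not pass (SE, n = 3 per group; edgeR adjusted p = 0.126; 0.049 to 0.366 over the alternatives), although it did with library quality weights. Without fed replicate 1 it was 0.59 and did not pass (edgeR adjusted p = 0.0612). kdm8 (10021587) had 22.1, 18.1 and 18.9 CPM in starved livers and 17.6, 11.5 and 9.39 CPM in fed livers. The groups did not overlap, with the highest fed value in fed replicate 1. Its log2 fold change of 0.62 ± 0.29 did not pass (SE, n = 3 per group; edgeR adjusted p = 0.253; 0.0241 to 0.494 over the alternatives), but without fed replicate 1 it was 0.91 and passed (edgeR adjusted p = 0.0241).

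None of the 4 KDM5 genes passed. KDM5A (10009677) had 29.3, 33.5 and 38.2 CPM in starved livers and 43.3, 47.6 and 44.8 CPM in fed livers, groups that did not overlap (log2 fold change -0.43 ± 0.22, SE; edgeR adjusted p = 0.309). KDM5C (10005361) averaged 39.6 ± 1.74 CPM in starved and 31.9 ± 7.89 CPM in fed livers (SD, n = 3 each, edgeR adjusted p = 0.523). Its groups did not overlap either, with 38.2 to 41.5 CPM in starved and 22.8 to 37.4 CPM in fed livers. KDM5B averaged 58.4 ± 9.6 CPM in starved and 58.2 ± 4.63 CPM in fed livers (SD, n = 3 each; edgeR adjusted p = 0.994), and its sign turned under some alternatives. The KDM6 enzymes, which take off the Polycomb methyl mark, had log2 fold changes from -0.24 to 0.37 in 4 genes. The FAD-dependent KDM1A and KDM1B had 0.07 and -0.13. KDM1B is an example of the spread among fed livers, with 7.89 CPM in fed replicate 1, 27.5 CPM in fed replicate 2 and 22.2 CPM in fed replicate 3, against 15.6 to 19.4 CPM in the starved livers.

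Among the HDACs, Hdac4 (10009188), a class IIa enzyme, rose 4.84-fold. It had 30.5, 40.7 and 35.4 CPM in starved livers and 1.97, 10.3 and 9.47 CPM in fed livers. The groups did not overlap, and fed replicate 1 was far below the other fed livers. The log2 fold change was 2.28 ± 0.52 (SE, n = 3 per group; edgeR adjusted p = 0.0443), and without fed replicate 1 it was 1.84 (edgeR adjusted p = 0.00386). The call ended without any 1 of the other 5 libraries and in both FPKM fits (adjusted p from DESeq2, edgeR and limma between 0.000393 and 0.153 over the alternatives). The authors' deposited table gives a fold change of 4.92 and a q-value of 0.00047. The second gene, HDAC4 (10014874), had 2.34, 3.03 and 2.79 CPM in starved livers and 1.28, 3.55 and 2.85 CPM in fed livers, which overlapped (log2 fold change 0.07 ± 0.42, SE; edgeR adjusted p = 0.943).

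The other class IIa genes did not pass. HDAC7 (10003749) had 5.52, 6.92 and 7.78 CPM in starved livers and 2.44, 4.56 and 6.46 CPM in fed livers, and HDAC7 (10017528) had 8.29, 10.3 and 8.44 CPM in starved livers and 9.97, 11.5 and 11.6 CPM in fed livers. Both overlapped between groups, and neither passed: 10003749 had a log2 fold change of 0.57 (edgeR adjusted p = 0.418) and 10017528 one of -0.30 (edgeR adjusted p = 0.509). HDAC5 and hdac9b had log2 fold changes of -0.24 and -0.35. Summed over the 6 class IIa genes, the level was 19.4, 26.0 and 19.4 FPKM in starved livers and 4.60, 15.5 and 13.9 FPKM in fed livers. Hdac4 (10009188) carried this difference: the other 5 genes summed to 7.41, 9.59 and 7.19 FPKM in starved livers and 4.05, 10.9 and 10.2 FPKM in fed livers, which overlapped. The deposited FPKM values are scaled by total count alone, and fed replicate 1 was the lowest library in them for 48.5% of all tested genes.

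Class I enzymes, the nuclear deacetylases of most corepressor complexes, stayed within small differences. HDAC1 averaged 20.8 ± 0.842 CPM in starved and 20.9 ± 2.89 CPM in fed livers, and hdac3 averaged 14.4 ± 1.06 CPM in starved and 12.5 ± 2.46 CPM in fed livers (SD, n = 3 each). The log2 fold changes of HDAC1, HDAC2 and hdac3 lay between -0.06 and 0.20, with SE from 0.22 to 0.27, and that of HDAC1 changed sign under several alternatives. Hdac6 had 81.0, 80.5 and 137 CPM in starved livers and 60.9, 116 and 90.6 CPM in fed livers, and did not pass (log2 fold change 0.16 ± 0.35, SE; edgeR adjusted p = 0.824). HDAC10 (10017062), known as a polyamine deacetylase, had 7.58, 9.49 and 8.59 CPM in starved livers and 12.1, 12.6 and 12.2 CPM in fed livers. Its groups did not overlap, yet its log2 fold change of -0.52 ± 0.23 did not pass (SE, n = 3 per group; edgeR adjusted p = 0.236; 0.0907 to 0.518 over the alternatives). HDAC11 (10005884), the class IV enzyme, had 4.39, 3.16 and 3.45 CPM in starved livers and 1.28, 3.61 and 2.15 CPM in fed livers, which overlapped (edgeR adjusted p = 0.432).

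Among the sirtuins, Sirt1 (10023812) fell to 4.89, 7.38 and 8.22 CPM in starved livers, against 20.1, 18.6 and 25.6 CPM in fed livers. The groups were well apart, and fed replicate 1 lay between the other fed livers. The log2 fold change was -1.65 ± 0.29, a level 0.319 times that of fed liver (SE, n = 3 per group; edgeR adjusted p = 0.0195). Without fed replicate 1 it was -1.69 (edgeR adjusted p = 0.0102). The call ended without any 1 of the other 5 libraries and in both FPKM fits (between 3.29e-05 with DESeq2 and 0.0955 with edgeR, both adjusted p, over the alternatives), while the log2 fold change stayed between -1.80 and -1.37 in all 17. The authors' deposited table gives a fold change of 0.322 and a q-value of 4.77e-05; KDM2B, Hdac4 and Sirt1 are the 3 of 41 members with a q-value under 0.05 there, where 9.49% of genes have one.

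Sirt7 (10013838), a nuclear sirtuin known for its role at ribosomal RNA genes in mammals, had 2.55, 2.11 and 1.54 CPM in starved livers and 0.464, 0.888 and 0.616 CPM in fed livers. The groups did not overlap, but these values rest on 36, 32 and 21 counts in starved and 4, 14 and 8 counts in fed libraries. The log2 fold change of 1.61 ± 0.46 did not pass (SE, n = 3 per group; edgeR adjusted p = 0.0849; 0.0369 to 0.273 over the alternatives), although it did with the DESeq2 Wald test. Sirt6 (10013441), a chromatin sirtuin, had 2.69, 2.24 and 2.94 CPM in starved livers and 3.83, 2.47 and 3.62 CPM in fed livers, and sirt2, the mainly cytoplasmic one, had a log2 fold change of -0.19. Neither passed (edgeR adjusted p = 0.608 and 0.726).

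The mitochondrial sirtuins showed differences smaller than their spread. SIRT5 (10022302) averaged 49.0 ± 8.67 CPM in starved and 48.5 ± 9.9 CPM in fed livers, and sirt5 (10014679) 28.2 ± 5.44 CPM in starved and 24.7 ± 2.4 CPM in fed livers (SD, n = 3 each; edgeR adjusted p = 0.982 and 0.675). SIRT3 (10012404) averaged 7.82 ± 0.951 CPM in starved and 9.18 ± 2.25 CPM in fed livers (SD, n = 3 each; edgeR adjusted p = 0.659). The log2 fold changes of these 3 genes were 0.01, 0.19 and -0.24, with SE of 0.27, 0.24 and 0.28.

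**Figure D3:**
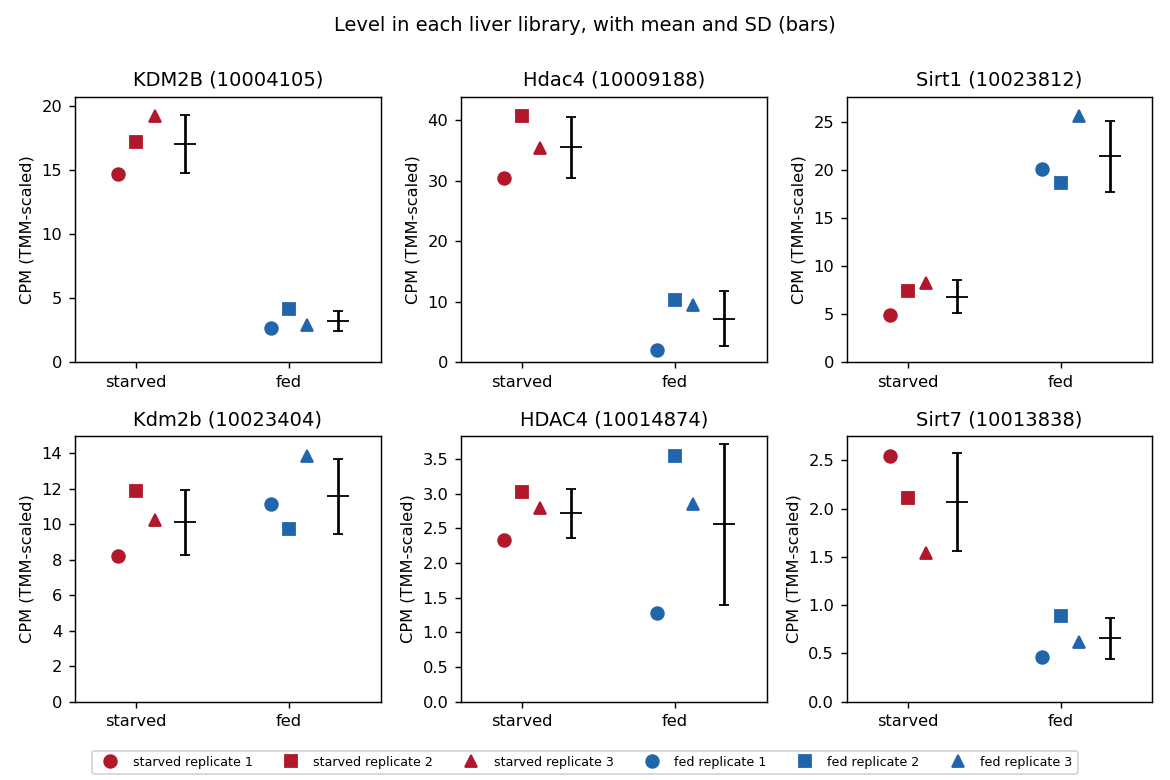
TMM-scaled CPM of 6 genes in each library, starved left and fed right, with mean and SD as bars. KDM2B and Hdac4 are higher and Sirt1 is lower in all 3 starved libraries than in any fed one, while the second genes named Kdm2b and HDAC4 overlap between groups; Sirt7 lies at 2.55 CPM or below.

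Several enzymes are present as 2 genes of the same symbol, 10 pairs in all, and in 8 pairs both genes were tested. The ratio of their counts within a library does not depend on library scaling. The KDM2B pair had 1.78, 1.44 and 1.88 counts of 10004105 for each count of 10023404 in starved livers, against 0.240, 0.425 and 0.211 in fed livers. In the starved livers the first gene was thus the more counted one, and in the fed livers the second. Counts are not corrected for coding length, which is 3894 bases for the first gene and 2376 bases for the second. Per coding length, the starved livers had 3.95, 4.74 and 4.55 FPKM of the first and 3.62, 5.38 and 3.98 FPKM of the second. The fed livers had 0.508, 1.28 and 0.794 FPKM of the first and 3.48, 4.94 and 6.16 FPKM of the second. The Hdac4 pair had ratios of 13.1, 13.4 and 12.7 in starved livers and 1.55, 2.89 and 3.32 in fed livers for 10009188 over 10014874, and its starved values lie close together. The HDAC7 pair had ratios of 0.667, 0.673 and 0.922 in starved livers and 0.244, 0.396 and 0.556 in fed livers for 10003749 over 10017528.

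Ratios did not overlap between groups in these 3 pairs and overlapped in the other 5. How often this happens in same-symbol pairs over all genes was not measured, and for CPM of single genes the share was 31.1%. The KDM2B and HDAC4 pairs hold the called genes 10004105 and 10009188, so their ratios partly restate those calls. A two-sided exact permutation test of the log2 ratio gave p = 0.1 for each of the 3 pairs, the smallest value that 3 against 3 libraries allow, and 0.267 after Benjamini-Hochberg adjustment over the 8 pairs, so none can pass here. The difference of the mean log2 ratio, starved minus fed, was 2.61 for KDM2B, 2.41 for Hdac4 and 0.98 for HDAC7, and it lay between -0.24 and 0.16 in the KDM2A, KDM4A, KDM6A, KDM6B and SIRT5 pairs.

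**Figure D4:**
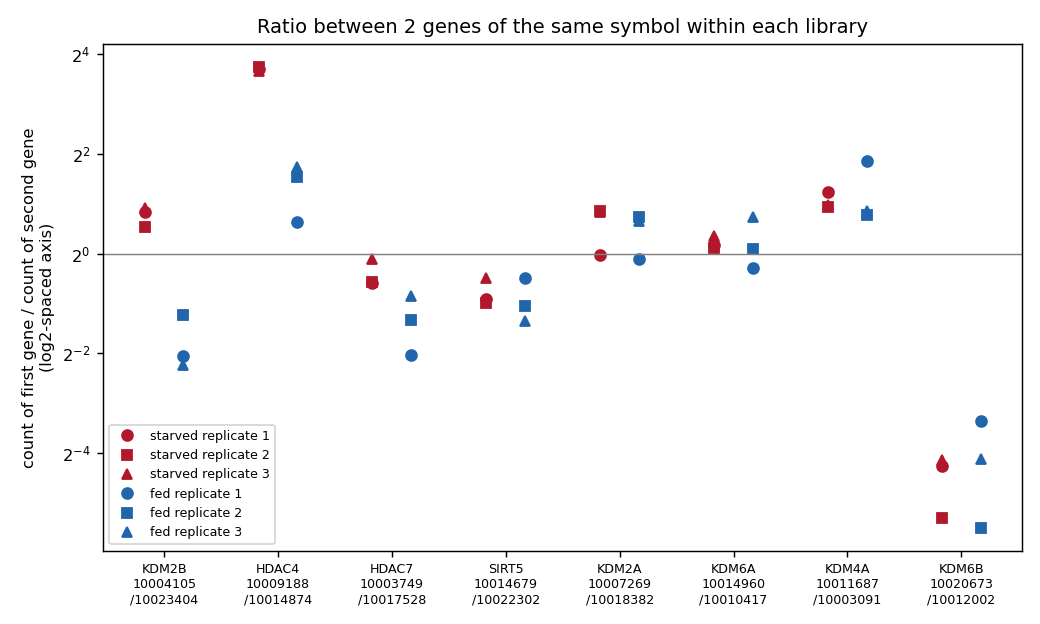
Count of the first gene over count of the second gene of the same symbol within each library (log2-spaced axis), starved left and fed right within each pair. The KDM2B, HDAC4 and HDAC7 pairs have starved ratios above all fed ratios, and the other 5 pairs overlap.

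Other genes of the same chemistry were taken from 5 lists of partners and opponents. Of 42 tested subunits of HDAC and KDM1 corepressor complexes, 2 rose, 0 fell and 40 did not pass; the 4.76% called is close to the 5.16% of all tested genes and says nothing particular of these subunits. Arid4b, a Sin3 complex subunit, averaged 35.0 ± 4.9 CPM in starved and 12.2 ± 1.9 CPM in fed livers (SD, n = 3 each; edgeR adjusted p = 0.0149, and up to 0.0834 over the alternatives). BRMS1L, also of the Sin3 complex, averaged 3.45 ± 0.0659 CPM in starved and 0.977 ± 0.249 CPM in fed livers (SD, n = 3 each; edgeR adjusted p = 0.0309, and up to 0.139). A second gene of that symbol, brms1l, averaged 1.35 ± 1.20 CPM in starved and 1.85 ± 0.00846 CPM in fed livers (SD, n = 3 each). Its groups overlapped and it did not pass (edgeR adjusted p = 0.718). The calls of Arid4b and BRMS1L ended without any 1 of the starved libraries or without fed replicate 2. That of BRMS1L ended also without fed replicate 3, and that of Arid4b in both FPKM fits. The median of the list was 0.11 on the log2 scale.

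Of 16 tested histone acetyltransferases and coactivators, which put on the acetyl groups that deacetylases remove, 15 had a log2 fold change above 0, against 48.1% of all tested genes, and 1 passed (6.25%, against 5.16% of all tested genes); fed replicate 1 was the lowest library for 11 of them. NCOA1, a nuclear receptor coactivator, averaged 19.4 ± 2.56 CPM in starved and 5.80 ± 2.87 CPM in fed livers (SD, n = 3 each; edgeR adjusted p = 0.0469, and up to 0.175), and its call was lost in both FPKM fits and on leaving out each single library except fed replicate 1. The median of the list was 0.42. Of 34 tested lysine methyltransferases, 0 passed in edgeR and 0 in limma-voom, against 688 and 594 of all 13338 tested genes. With DESeq2 1 rose, where 12.4% of all tested genes passed in either direction. An unadjusted edgeR p under 0.05 was found for 9 of the 34, against 21.9% of all tested genes. The median was 0.24. Of 13 other JmjC genes, 0 passed in edgeR and 0 in limma-voom. With DESeq2 1 of them, JMJD1C, rose, where 12.4% of all tested genes passed, and 4 had an unadjusted edgeR p under 0.05, against 21.9%. JMJD1C had a log2 fold change of 1.18 ± 0.28 (SE, n = 3 per group, edgeR adjusted p = 0.0529), and its groups did not overlap. It also passed with DESeq2 size factors in edgeR, with library quality weights and without fed replicate 1. With the weights, 3 of the 13 rose.

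The genes of NAD supply and use, the cosubstrate of sirtuins, held 3 called genes of 20 tested, 1 higher and 2 lower. This is 15.0%, against 5.16% of all tested genes, and rests on 3 genes. tdo2a, the first enzyme of tryptophan breakdown and so of the route from tryptophan to NAD, rose 3.02-fold (edgeR adjusted p = 0.0238, and up to 0.12 over the alternatives). afmid, the next enzyme of that route, fell to 32.8 ± 4.55 CPM in starved livers, against 70.3 ± 5.45 CPM in fed livers (SD, n = 3 each; edgeR adjusted p = 0.0368, and up to 0.18). Nadk, which turns NAD into NADP, fell to 7.75 ± 0.879 CPM in starved livers, against 16.9 ± 1.62 CPM in fed livers (SD, n = 3 each; edgeR adjusted p = 0.033, and up to 0.17). A second gene named Nadk averaged 20.4 ± 3.19 CPM in starved and 19.4 ± 7.84 CPM in fed livers (SD, n = 3 each). It did not pass (edgeR adjusted p = 0.909). The 3 called genes were each no longer called when a library was dropped, fed replicate 1 excepted. The calls of afmid and of the first Nadk gene were also lost in both FPKM fits, and that of afmid with no filter on low counts. The median of the list was -0.32. Over the 5 lists together, 4 of 125 tested genes rose and 2 fell, 4.8% against 5.16% of all tested genes. Without fed replicate 1, 12 of 126 rose and 6 fell, 14.3% against 12.3% of all tested genes. Both pooled shares lie near the background. The counts of each list without fed replicate 1 follow. Each rests on few called genes, and whether any list differs from the others or from the 12.3% was not tested. Of 20 NAD genes 1 rose and 5 fell, with Kynu, PARP1 and Nampt added to the lower ones. Of 13 other JmjC genes 3 rose and 0 fell, and of 42 corepressor subunits 5 rose and 1 fell. Of 16 acetyltransferases and coactivators 1 rose and 0 fell, and of 35 lysine methyltransferases 2 rose and 0 fell.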

How the data were processed

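The deposited count table holds unnormalized whole numbers. In the authors' FPKM table each value is the count over the column total and over a fixed length; 99.999% of lengths came out whole (tolerance 0.01 bases) and 100.0% were multiples of 3, hence coding lengths. The authors' deposited comparison gives a ratio, the fold change with starved on top (96.8% of genes had the sign of the FPKM ratio), and a q-value; its test is not named there. Read statistics give counts of reads and percent of bases, per the file headers. Trimmomatic, HISAT2, Cufflinks and HTSeq are named without versions in the submitters' processing notes; libraries were poly(A)-selected and strand-marked, per the labels' protocols. The genome build and the strand setting of counting are not given in the sources used here, so overlapping genes and close copies may share reads.

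The main test was edgeR 4.0.16 (R 4.3.3). The default filterByExpr kept 13338 of 19303 genes, then TMM scaling, robust quasi-likelihood F test (starved minus fed) and Benjamini-Hochberg adjustment over all tested genes. CPM values use TMM factors; the SE is the log2 fold change over the root of F. Alternatives used DESeq2 1.42.0 and limma 3.58.1. Replicates of a group differed by a chi-square per degree of freedom of 33.6 to 149, so no libraries of a group agreed within counting noise and each was counted as 1 replicate. The tests were tried on simulated counts, with library sizes and the spread of each gene taken from these data. There edgeR called 3 of 50 genes changed 2-fold and 34 of 50 changed 4-fold, with 5 false among 140 calls. DESeq2 had 31 false among 176 calls. The simulation gave each gene the same spread in every library, as estimated by edgeR. A library that stands apart, as fed replicate 1 does, was not simulated. The simulated calls and false calls may therefore not hold for the real libraries, and they do not rank the methods.

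The members and lists were chosen with earlier results of these data known. Lists were matched by symbol, with or without a paralog ending a or b, which also takes Bub1b under BUB1. Named genes are the called members; in each family the 3 with the smallest p and the 3 with the highest mean FPKM; their copies; and up to 3 called genes of each list. Other members are named to account for all. Library quality weights were added after seeing the data.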

Additional observations from a re-analysis of the deposited data

How the results depend on the processing

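The number of genes called in all moved from 688 to 1655 with the DESeq2 Wald test and to 1951 with library quality weights, an alternative chosen after seeing the data, and lay between 102 (without starved replicate 1) and 1704 (without fed replicate 1) when 1 library was left out. Among the histone demethylases, deacetylases and sirtuins, 1 rose and 0 fell on log2(FPKM + 1) and on log2(FPKM + 0.1), and 4 rose with quality weights. When 1 library was left out, 1 to 3 rose and 0 to 1 fell. KDM2B was called higher in each of these; the calls of Hdac4 and Sirt1 held with quality weights and, among the fits that left out 1 library, without fed replicate 1 only. In the companion lists, 7 rose and 5 fell with DESeq2, 2 rose and 0 fell in both FPKM fits, 13 rose and 6 fell with quality weights, and 1 fell with no filter on low counts; 0 to 12 rose and 0 to 6 fell when 1 library was left out. The cause was not tested.

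Among the named members, signs turned only for genes that did not pass, with log2 fold changes near 0. Signs of the other members were not followed across the alternatives. Hdac6 turned to -0.14 without starved replicate 3, -0.06 without fed replicate 1 and -0.025 with quality weights; HDAC4 (10014874) to -0.01 without starved replicate 2, -0.24 without fed replicate 1 and -0.19 with quality weights. KDM5B turned to -0.0036 with limma-voom, -0.10 and -0.0047 without starved replicates 2 and 3, -0.06 without fed replicate 1 and -0.049 with quality weights. SIRT5 (10022302) turned to -0.14 without starved replicate 1, -0.15 without fed replicate 1 and -0.13 with quality weights. HDAC1 turned to 0.0073 with upper-quartile scaling, 0.0015 with the DESeq2 Wald test, 0.0053 with limma-voom, 0.013 with no filter, 0.043 and 0.046 with log2(FPKM + 1) and log2(FPKM + 0.1), 0.03 without starved replicate 1, 0.10 with quality weights and 0.11 without fed replicate 1. The highest or lowest values on leaving out 1 library were 0.40 for Hdac6, 0.38 for HDAC4 (10014874), 0.13 for KDM5B, 0.13 for SIRT5 (10022302) and -0.066 for HDAC1. No paired analysis was possible because the numbers in the title codes differ between the starved and fed groups, and of the code letters, which the labels do not explain, E alone occurs in both. The depth limits Sirt7, hdac9b, Kdm6b (10020673), HDAC11 (10012533) and SIRT3 (10000160), which had 36 counts or fewer in each library.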
